A study of Mus musculus with 6 samples.

Results

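The 45 genes described here encode the enzymes and regulators of sterol synthesis, fatty acid synthesis and fatty acid oxidation. They were chosen by name, with earlier results of these data known. Each was represented by a probe set annotated with that gene symbol alone and, where there were several such probe sets, by the brightest over all 6 arrays. Of the 45 genes 44 were measured in this way, out of 19938 genes in all, and Acsl1 was not analysed here. The 6 arrays came from 4T1 cells, an established mouse mammary carcinoma line. Of these, 3 were from cells given 500 nM TKI258 for 16 h and 3 from cells given the vehicle DMSO for as long, each labelled as a biological replicate. Both groups grew for 24 h beforehand and had 10% serum throughout. TKI258 is dovitinib, which blocks receptor tyrosine kinases of the FGF, VEGF and PDGF receptor families. The model is thus 1 tumour line in culture, without stroma or immune cells. The comparison asks which transcripts of lipid metabolism differ after the inhibitor.

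Cells make cholesterol from acetyl-CoA through mevalonate, isoprenoid and squalene intermediates, and then through a series of changes to the sterol ring. The transcription factors SREBP, encoded by Srebf1 and Srebf2, drive most genes of this route and many of fatty acid synthesis. SCAP escorts the SREBP precursors to the Golgi for cleavage when membrane sterols are low, and the INSIG proteins hold SCAP in the endoplasmic reticulum when sterols are high. Fatty acids are built in the cytosol by acetyl-CoA carboxylase and fatty acid synthase and are then elongated and desaturated. In mitochondria they are broken down by beta-oxidation, after carnitine palmitoyltransferases and a carnitine carrier have brought them across the inner membrane.

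Values are log2 signals per probe set. A log2 change is the mean of the 3 TKI258 arrays minus that of the 3 DMSO arrays, with its standard error (SE) from a moderated linear model in limma. A gene passed the test at a Benjamini-Hochberg adjusted p below 0.05 over all 19938 genes. Array medians lay between 4.97 and 5.04, and correlations over all genes were 0.997 to 0.998 within a group and 0.988 to 0.990 between groups. Of the 44 members, 43 had both group means above 5.01, the median of all values, and Thrsp had not. Signals are per amount of RNA, so fewer cells carrying a transcript and less transcript per cell cannot be told apart.

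Of the 44 members 18 rose, 2 fell and 24 did not pass, so 40.9% were higher and 4.55% lower. Over all genes 27% passed, 14.4% higher and 12.6% lower, a balance that turned with arrays centred on their medians (2497 higher and 2622 lower). The members are brighter than most genes, and among the 11215 genes with a mean above 5.01 the shares were 44.2% passing, 23% higher and 21.2% lower. The members' share past the threshold, 45.5%, was thus near that of genes with a mean above 5.01, while its split between directions was not even. Those genes were not matched to the members in signal beyond that bound. The members were chosen with earlier results of these data known, so the split only describes this list. The median log2 change of the members was 0.21, against 0.01 over all genes and 0.01 over the brighter ones. Groups did not overlap in 26 of 44 members, or 59.1%, against 40.2% of all genes and 60.5% of the brighter ones. By role, 7 of 15 sterol synthesis genes rose and 0 fell, with 9 higher and 0 lower at an unadjusted p below 0.05 in limma. Of 14 fatty acid synthesis genes 5 rose and 1 fell. Of 7 fatty acid oxidation genes 5 rose and 0 fell, with 6 and 0 at an unadjusted p below 0.05. At that unadjusted p 3837 of all 19938 genes were higher and 3270 lower. The median log2 change was 0.35 for oxidation, 0.21 for sterol synthesis, 0.13 for fatty acid synthesis and 0.13 for the 6 genes of SREBP control.

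**Figure D1:**
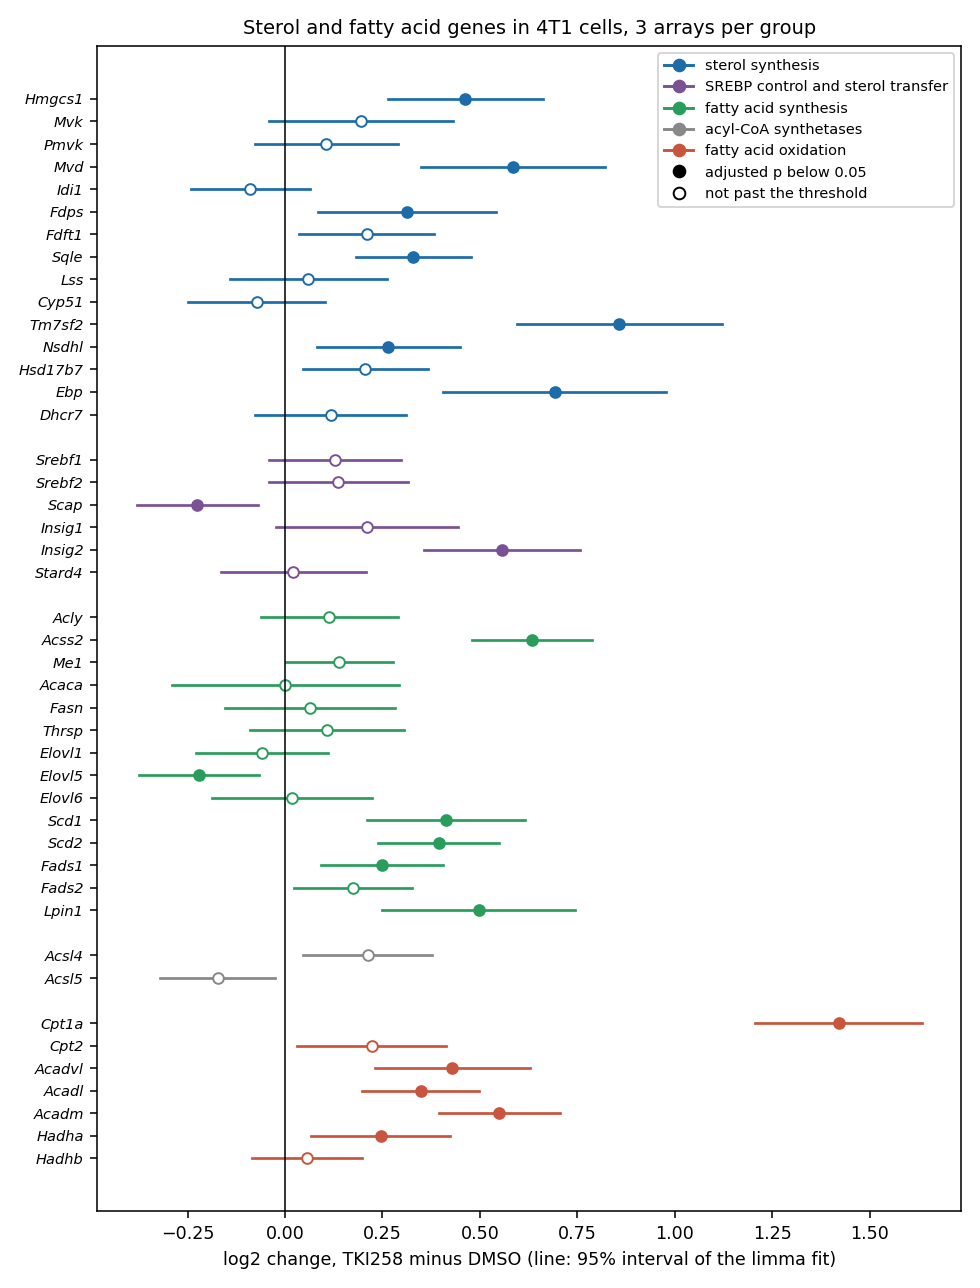
Log2 change (TKI258 minus DMSO) of the 44 measured members, ordered by role and by step within a role, with the 95% interval of the limma fit from 3 arrays per group. Filled points passed an adjusted p of 0.05. Cpt1a stands farthest to the right at 1.42, and the 2 filled points left of 0 are Scap and Elovl5.

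Promoter sequences are shown because the sterol genes are textbook targets of SREBP. The motifs searched were picked from that knowledge, so finding them at these genes is no independent result. RefSeq windows on build GRCm38.p6, from 250 bases before to 50 after a transcript start, were found for 38 of the 45 members by symbol. Each was searched on both strands for the SREBP site TCACNCCAC, the NF-Y box CCAAT and the E-box CACGTG. NF-Y is the factor that binds next to SREBP at many sterol genes. All 12 sterol synthesis genes with a window held an NF-Y box, as did 4 of 5 SREBP control genes and 7 of 11 fatty acid synthesis genes, but 1 of 7 oxidation genes (Cpt1a). Over the 27025 genes in the table the share was 41.1%. A gene with several windows counted if any of them held the box. By window the box was in 12 of 15 for sterol synthesis, 5 of 10 for SREBP control, 7 of 13 for fatty acid synthesis and 1 of 7 for oxidation. Over all windows in the table the share was 37.4%. The SREBP site in this strict form was found in 2 of 38 members, Hmgcs1 and Acsl1, against 1.44% of all genes, and the E-box in 5 of 38, against 8.09%. No matches to different motifs overlapped in the members. The stretches below end at the base before the transcript start and are written 5′ to 3′ on the gene's strand, with motif matches in capitals (ATTGG is the NF-Y box on the other strand). The first 4 genes rose after TKI258, Idi1 and Cyp51 did not pass, and Cpt1a is the most changed oxidation gene.
Hmgcs1, chr13:119690151-119690350, plus strand: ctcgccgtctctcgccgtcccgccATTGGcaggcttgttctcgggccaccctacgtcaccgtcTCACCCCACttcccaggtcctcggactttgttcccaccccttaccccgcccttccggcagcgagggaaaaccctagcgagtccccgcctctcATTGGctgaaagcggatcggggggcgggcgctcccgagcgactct
Mvd, chr8:122443423-122443522, minus strand: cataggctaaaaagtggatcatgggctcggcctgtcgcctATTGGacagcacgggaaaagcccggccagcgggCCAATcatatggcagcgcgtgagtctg
Tm7sf2, chr19:6067851-6067950, minus strand: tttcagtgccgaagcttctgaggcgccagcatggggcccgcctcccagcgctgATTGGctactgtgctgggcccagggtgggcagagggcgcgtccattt
Ebp, chrX:8193513-8193612, minus strand: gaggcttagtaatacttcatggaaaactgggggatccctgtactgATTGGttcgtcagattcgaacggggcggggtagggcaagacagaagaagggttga
Idi1, chr13:8885506-8885605, plus strand: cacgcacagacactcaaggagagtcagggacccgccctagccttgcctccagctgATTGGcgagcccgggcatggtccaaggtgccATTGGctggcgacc
Cyp51, chr5:4104698-4104797, minus strand: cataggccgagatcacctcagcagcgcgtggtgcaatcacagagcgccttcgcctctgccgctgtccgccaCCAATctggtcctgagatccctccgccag
Cpt1a, chr19:3323201-3323300, plus strand: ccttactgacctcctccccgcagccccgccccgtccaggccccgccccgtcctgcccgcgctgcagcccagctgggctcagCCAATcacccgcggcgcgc
The Hmgcs1 stretch holds 1 SREBP site between 2 NF-Y boxes. Mvd and Idi1 hold 2 NF-Y boxes each in the 100 bases shown, and the other 4 hold 1 each. Genes with the box therefore include members that rose and members that did not pass, and a match is only a run of letters, not a shown binding site.

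**Figure D2:**
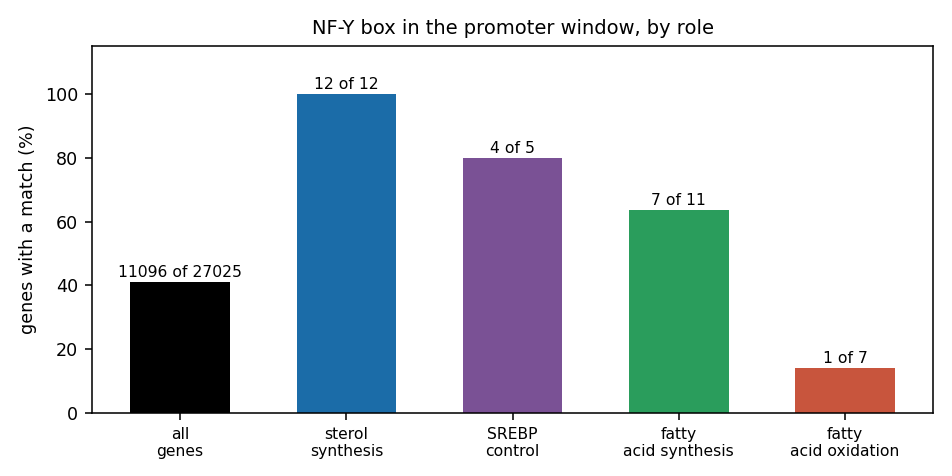
Percent of genes with at least 1 NF-Y box (CCAAT on either strand) in their promoter windows, for all genes of the RefSeq table and for 4 roles, with the counts above the bars. All 12 sterol synthesis genes with a window have the box, against 41.1% of all genes and 1 of 7 oxidation genes.

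In sterol synthesis the genes that rose came from both the early and the late steps. Of the 7 genes up to squalene 3 rose, Hmgcs1, Mvd and Fdps, and of the 8 from squalene epoxidation onward 4 rose, Sqle, Tm7sf2, Nsdhl and Ebp. Changes were between 1.2-fold and 1.81-fold. Hmgcs1, the synthase that makes HMG-CoA at the start of the route, read 10.66, 10.53 and 10.50 on the DMSO arrays and 11.20, 10.95 and 10.92 on the TKI258 arrays. The groups did not overlap, and the log2 change was 0.46 (SE 0.09, adjusted p = 0.00369). Mvd, the mevalonate diphosphate decarboxylase, read 7.84, 7.78 and 7.87 with DMSO and 8.51, 8.16 and 8.57 with TKI258. Its lowest TKI258 array, replicate 2, was still above every DMSO array, and the change was 0.59 (SE 0.10, adjusted p = 0.00262).

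Tm7sf2, a sterol reductase acting on the ring after demethylation, changed most among the 15 sterol synthesis genes. It read 6.67, 6.68 and 6.94 with DMSO and 7.73, 7.38 and 7.75 with TKI258, a log2 change of 0.86 (SE 0.12, adjusted p = 0.000537) with no overlap. Ebp, the sterol isomerase that shifts a double bond in the ring, followed at 0.69 (SE 0.13, adjusted p = 0.00294). Its DMSO values were 8.23, 8.07 and 8.35 and its TKI258 values 8.67, 8.87 and 9.18, so the 2 groups were apart, with TKI258 replicate 3 the highest. Sqle, the squalene epoxidase and a control point of the route, read 10.45, 10.46 and 10.53 against 10.83, 10.74 and 10.86. Both groups of Sqle were tight, and the change was 0.33 (SE 0.07, adjusted p = 0.00461).

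The remaining rises, of the farnesyl diphosphate synthase Fdps and the sterol dehydrogenase Nsdhl, were close to the threshold. Fdps read 10.02, 10.01 and 10.15 with DMSO and 10.60, 10.23 and 10.29 with TKI258, a log2 change of 0.31 (SE 0.10, adjusted p = 0.0484). TKI258 replicate 1 was the high array, and without it the change was 0.20. With each of the 6 arrays left out in turn, Fdps passed only when that array was TKI258 replicate 2, and its adjusted p ran from 0.0291 to 0.136. Nsdhl read 9.89, 9.82 and 9.83 against 10.27, 10.06 and 10.01, a change of 0.27 (SE 0.08, adjusted p = 0.0374). With 1 array left out it passed only when that was TKI258 replicate 3 (adjusted p between 0.0236 and 0.112). With arrays centred on their medians neither passed, at adjusted p = 0.0634 for Fdps and 0.0567 for Nsdhl.

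The other 8 sterol synthesis genes did not pass. Mvk, the mevalonate kinase, had a log2 change of 0.20 (95% interval -0.04 to 0.43) and Pmvk, the next kinase, of 0.11. Idi1, the isomerase of the isoprenoid unit, was at -0.09 (-0.24 to 0.06), at a DMSO mean of 10.87. Fdft1, the squalene synthase, was at 0.21 with groups that did not overlap, 10.95 to 11.12 against 11.17 to 11.36 (adjusted p = 0.0765). Lss, which closes the ring, was at 0.06, and Cyp51, which removes a methyl group from lanosterol, at -0.07 (-0.25 to 0.10). Hsd17b7, a ketosteroid reductase of the route, was at 0.21 (adjusted p = 0.0625) and Dhcr7, the last reductase, at 0.12. Without TKI258 replicate 2, Mvk and Hsd17b7 passed, at 0.32 and 0.26 (adjusted p = 0.0188 and 0.0325, with highest values of 0.476 and 0.169 over the arrays left out). In limma's treat test, which asks for more than a 1.2-fold change, 2 of the 15 sterol genes remained past the threshold, Tm7sf2 and Ebp. Of all 19938 genes 1057 were higher and 864 lower in that test.

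Among the regulators of SREBP, Insig2 rose and Scap fell. Insig2, which retains SCAP, read 9.36, 9.46 and 9.57 with DMSO and 9.93, 9.95 and 10.18 with TKI258. No TKI258 array came near the DMSO ones, and the log2 change was 0.56 (SE 0.09, adjusted p = 0.00137). Scap itself read 9.61, 9.55 and 9.70 against 9.46, 9.34 and 9.39, a change of -0.22 (SE 0.07, adjusted p = 0.0385). Scap kept its call in just 1 of the 6 fits with an array left out, that without TKI258 replicate 1 (adjusted p between 0.0412 and 0.139), and lost it with renewed quantile normalization (adjusted p = 0.0831). Insig1, a direct SREBP target in textbooks, was at 0.21 with an interval of -0.02 to 0.44. Its TKI258 arrays read 10.69, 10.27 and 10.56, and replicate 2 lay within the DMSO range of 10.25 to 10.34. Without that array the Insig1 change was 0.33 (adjusted p = 0.0175, and 0.451 at the highest over the 6 arrays left out). The factor genes Srebf1 and Srebf2 were at 0.13 (-0.04 to 0.30) and 0.14 (-0.04 to 0.32), and Stard4, a carrier of sterols between membranes, at 0.02.

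**Figure D3:**
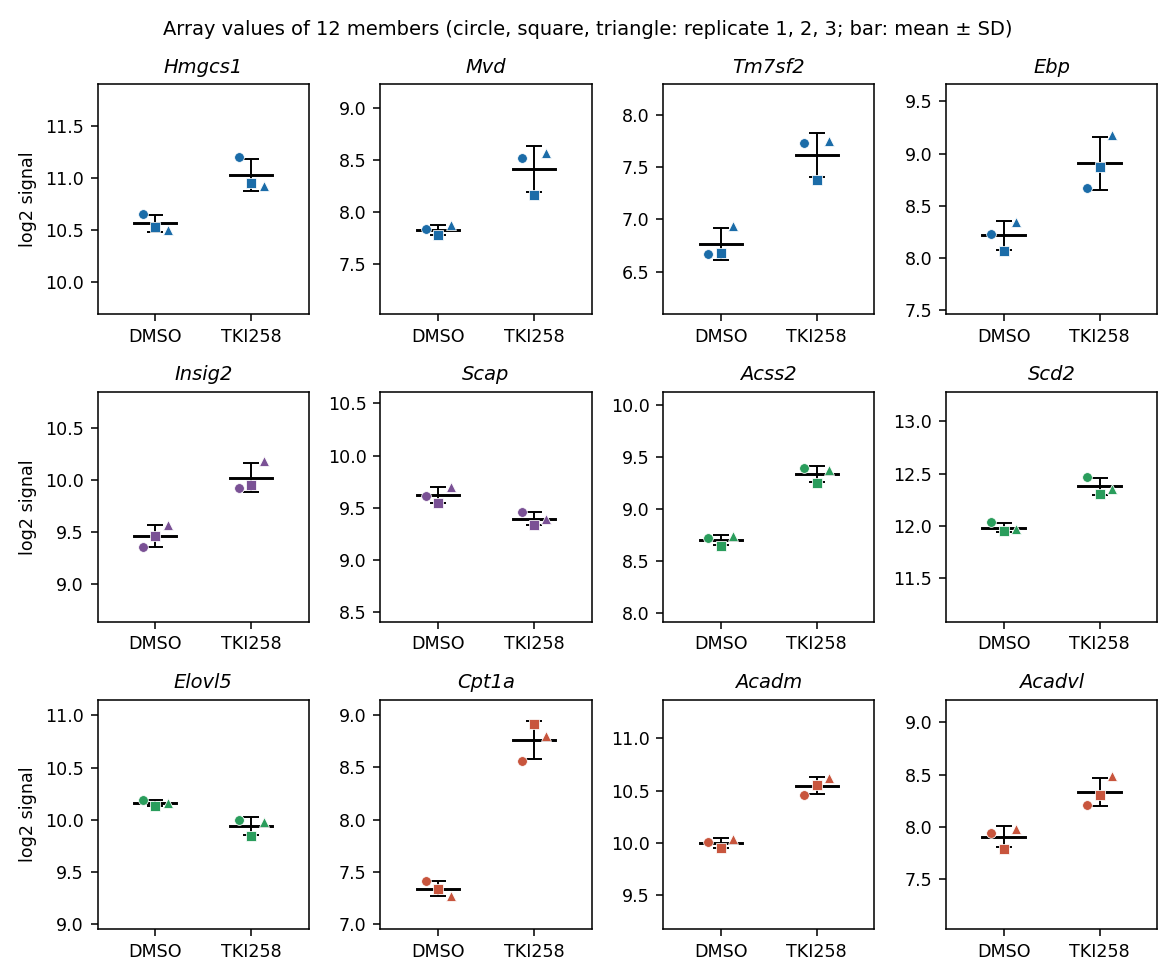
Log2 signal of 12 members on each array, with the mean and SD of the 3 arrays per group. Every panel spans the same number of log2 units around the gene's own midpoint. The 12 shown are a selection of members whose groups did not overlap, so separation in every panel follows from that choice. Of all 44 measured members the groups did not overlap in 26. Among the 12 the groups are farthest apart in Cpt1a, and TKI258 lies below DMSO only in Scap and Elovl5.

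In fatty acid synthesis the core enzymes did not pass, and the rises lay in acetate activation, desaturation and phosphatidate breakdown. Fasn, the fatty acid synthase, had a log2 change of 0.06 (95% interval -0.15 to 0.28), Acaca, the carboxylase that makes malonyl-CoA, of 0.00 (-0.29 to 0.29), and Acly, which makes cytosolic acetyl-CoA from citrate, of 0.11 (-0.06 to 0.29). The Fasn arrays read 10.46, 10.41 and 10.28 with DMSO and 10.63, 10.43 and 10.28 with TKI258, and the 2 ranges overlapped. Acss2, which makes acetyl-CoA from acetate, rose 1.55-fold. It read 8.72, 8.65 and 8.74 against 9.39, 9.25 and 9.38, a change of 0.63 (SE 0.07, adjusted p = 0.000143) with the smallest adjusted p of the role.

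The desaturase genes Scd1 and Scd2 both rose. Scd2 read 12.03, 11.95 and 11.97 with DMSO and 12.47, 12.31 and 12.36 with TKI258, a change of 0.40 (SE 0.07, adjusted p = 0.00221). Scd1 read 9.80, 9.84 and 9.82 against 10.40, 10.05 and 10.25, a change of 0.41 (SE 0.09, adjusted p = 0.00755). Both have no overlap between groups. They are close relatives in sequence, and cross-reading between their probe sets was not tested. Fads1, a desaturase of polyunsaturated fatty acids, rose by 0.25 (adjusted p = 0.0252), from 9.64 to 9.76 with DMSO to between 9.89 and 10.02 with TKI258. Leaving out DMSO replicate 1 or 2, or the first TKI258 replicate, ended the call of Fads1 (adjusted p between 0.0324 and 0.0946 across all such fits), as did centring the arrays on their medians (adjusted p = 0.0575). Its neighbour in function Fads2 was at 0.17 and did not pass (adjusted p = 0.0879).

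Lpin1, a phosphatidate phosphatase of glycerolipid synthesis, read 7.90, 7.93 and 7.95 with DMSO and 8.70, 8.33 and 8.24 with TKI258. The DMSO arrays were close together, TKI258 replicate 1 was the highest, and the change was 0.50 (SE 0.11, adjusted p = 0.00825). Elovl5, an elongase of polyunsaturated fatty acids, fell by 0.22 (SE 0.07, adjusted p = 0.0386), from 10.19, 10.14 and 10.16 to 10.00, 9.84 and 9.98. That call ended when any 1 DMSO array or TKI258 replicate 2 was left out (adjusted p between 0.0400 and 0.129 over the arrays left out) and with renewed quantile normalization (adjusted p = 0.0741). The other elongases Elovl1 and Elovl6 were at -0.06 and 0.02, the malic enzyme gene Me1 at 0.14, and the lipogenic regulator gene Thrsp, the dim member, at 0.11. In the treat test 1 of the 14 genes remained, Acss2, where 1057 of all 19938 genes were higher and 864 lower.

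The acyl-CoA synthetases attach coenzyme A to fatty acids for either route. Of the 2 measured 0 passed in limma, while at an unadjusted p below 0.05 Acsl4 was higher and Acsl5 lower. Acsl4 was at 0.21 (SE 0.07, adjusted p = 0.0631) and Acsl5 at -0.17 (SE 0.07, adjusted p = 0.0864), and in both the groups did not overlap. Acsl4 passed without TKI258 replicate 3 (adjusted p = 0.0368, and 0.188 at the highest over the arrays left out).

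Fatty acid oxidation held the most changed member. Cpt1a, the carnitine palmitoyltransferase of the outer mitochondrial membrane and the control point of entry into oxidation, read 7.41, 7.34 and 7.27 on the DMSO arrays and 8.56, 8.92 and 8.80 on the TKI258 arrays. Its lowest TKI258 array was more than 1 log2 unit above its highest DMSO array. The change was 1.42 (SE 0.09, adjusted p = 1.01e-05), or 2.68-fold, and 99.4% of all genes had a lower log2 change. Cpt2, its partner on the inner membrane, was at 0.22 (0.03 to 0.41) with overlapping groups and did not pass (adjusted p = 0.0877). It passed without DMSO replicate 3 (adjusted p = 0.0490, and 0.282 at the highest over the arrays left out).

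The 3 acyl-CoA dehydrogenases, which take the first step of each oxidation cycle on chains of differing length, all rose. Acadm, for medium chains, read 10.01, 9.95 and 10.04 with DMSO and 10.46, 10.56 and 10.62 with TKI258, a change of 0.55 (SE 0.07, adjusted p = 0.000325). Acadvl, for very long chains, read 7.94, 7.79 and 7.98 against 8.21, 8.30 and 8.49, a change of 0.43 (SE 0.09, adjusted p = 0.00545). Acadl, for long chains, rose by 0.35 (SE 0.07, adjusted p = 0.00373), from 10.19 to 10.26 with DMSO to between 10.50 and 10.63 with TKI258. In all 3 the groups were apart and TKI258 replicate 1 was the lowest of its group. Hadha and Hadhb encode the paired subunits of the trifunctional protein that carries out the later steps. Hadha rose by 0.25 (SE 0.08, adjusted p = 0.0475), from 9.95, 10.03 and 10.00 to 10.11, 10.24 and 10.37, and Hadhb was at 0.06 (-0.08 to 0.20). The Hadha call held in 1 of the 6 fits with an array left out, that without TKI258 replicate 1 (adjusted p between 0.0178 and 0.149), and ended with arrays centred on their medians (adjusted p = 0.0904). In the treat test 2 of the 7 genes remained, Cpt1a and Acadm, beside 1057 higher and 864 lower of all 19938 genes.

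Of 19 further measured genes of oxidation, outside the 45, 11 rose and 1 fell, or 57.9% and 5.26%, with a median log2 change of 0.28. Over all genes these shares were 14.4% and 12.6%, and among the brighter genes 23% and 21.2%, and the difference from them was not tested. Acadsb, a short and branched chain dehydrogenase, rose by 0.79 (SE 0.06, adjusted p = 2.37e-05), Etfdh, which passes electrons from the dehydrogenases to ubiquinone, by 0.78 (SE 0.07, adjusted p = 7.37e-05), and Slc25a20, the carnitine carrier between the 2 palmitoyltransferases, by 0.75 (SE 0.10, adjusted p = 0.000526). Hsd17b4, of the peroxisomal route, rose by 0.41 (SE 0.07, adjusted p = 0.00171). Slc25a20 read 7.96, 8.05 and 8.08 with DMSO and at least 8.60 on each TKI258 array, so the groups did not overlap. The receptor gene Ppard fell by 0.27 (adjusted p = 0.0302), which it passed only without DMSO replicate 2 when 1 array was left out (adjusted p between 0.0339 and 0.101). Ppara and Ppargc1a, whose products drive oxidation genes in other tissues, were at 0.05 and -0.10 with means below 5.01 in both groups. With 1 array left out the rises numbered 8 to 11 and the falls 0 to 1.

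**Figure D4:**
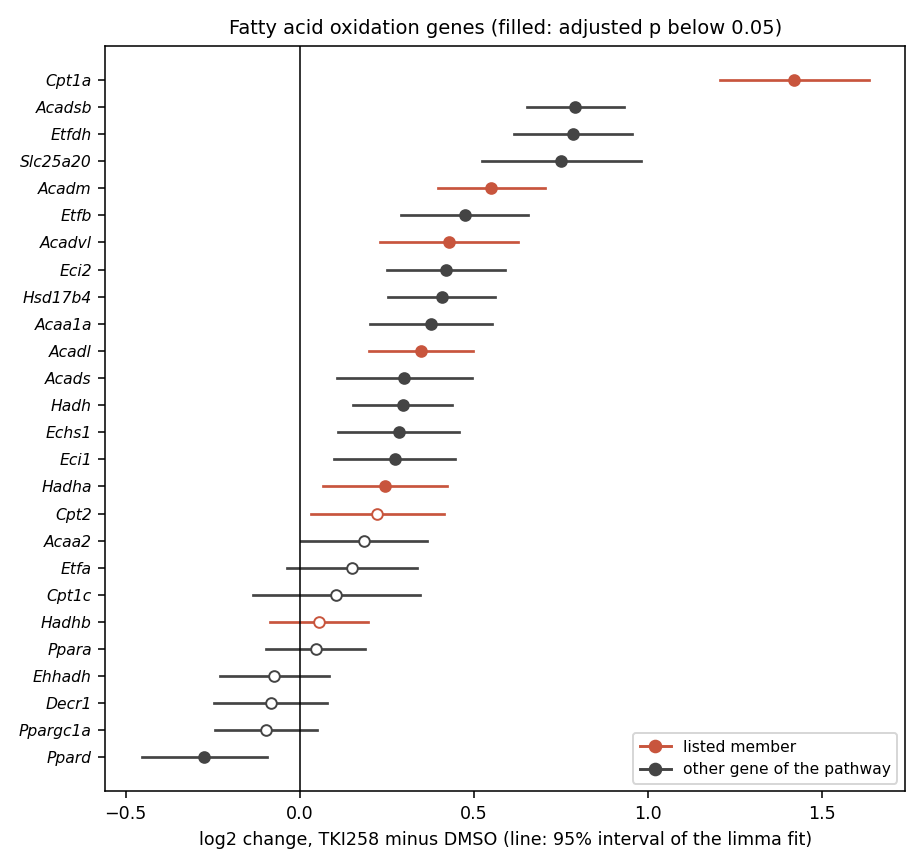
Log2 change (TKI258 minus DMSO) with 95% intervals of the 7 listed oxidation genes and 19 further measured genes of the pathway, sorted by change, from 3 arrays per group. Filled points passed an adjusted p of 0.05. All filled points but Ppard lie to the right of 0.

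Of 11 further sterol genes measured 4 rose and 1 fell, or 36.4% and 9.09%. Over all genes these shares were 14.4% and 12.6%, and among the brighter genes 23% and 21.2%. The share of the 11 past the threshold, 45.5%, was near the 44.2% of the brighter genes, and the split between directions was not tested. Mylip, a ubiquitin ligase that removes lipoprotein receptors, rose by 1.03 (SE 0.07, adjusted p = 1.03e-05), the lysosomal cholesterol exporter genes Npc2 and Npc1 by 0.50 and 0.34 (adjusted p = 0.000372 and 0.00519), and the sterol-sensing receptor gene Nr1h3 by 0.39 (adjusted p = 0.00523). Lbr, a nuclear envelope protein with the same sterol reductase activity as Tm7sf2, fell by 0.46 (SE 0.07, adjusted p = 0.00112). It read 11.72, 11.76 and 11.72 with DMSO and 11.39, 11.21 and 11.22 with TKI258, so the 2 genes for that step moved in opposite directions. The late synthesis genes Msmo1 and Sc5d were at 0.02 and -0.10 and did not pass.

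Of 17 further genes of fatty acid and glycerolipid synthesis 5 rose and 4 fell, or 29.4% and 23.5%. Both shares were near the 23% and 21.2% of the brighter genes, while over all genes they were 14.4% and 12.6%. Acacb, the carboxylase isoform at the mitochondrial surface whose malonyl-CoA inhibits Cpt1a, rose by 0.60 (SE 0.07, adjusted p = 0.000233), from 5.17, 5.21 and 5.20 to 5.89, 5.78 and 5.70, values near the array median. Oxsm, of mitochondrial fatty acid synthesis, rose by 0.56 (adjusted p = 0.00162). The other rises were Lpin3 at 0.33, the citrate carrier gene Slc25a1 at 0.30 and Mid1ip1 at 0.29. Mid1ip1 had a further probe set, and the mean over its probe sets was at 0.12 and did not pass (adjusted p = 0.337). The falls were Hsd17b12 and Hacd2, enzymes of chain elongation, at -0.32 and -0.27 (adjusted p = 0.00326 and 0.0127), with Mecr at -0.30 and Gpam at -0.20. Of these 9, only Acacb, Oxsm and Hsd17b12 passed whichever array was left out. With 1 array left out the rises numbered 2 to 6 and the falls 1 to 3, with 2 rises without DMSO replicate 2 or TKI258 replicate 3, 3 rises and 1 fall without DMSO replicate 1, 2 falls without DMSO replicate 3 or TKI258 replicate 2, and 3 rises and 2 falls without TKI258 replicate 1.

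The TKI258 arrays were not alike in these roles. The mean deviation of the 15 sterol synthesis genes from their DMSO means was 0.38, 0.15 and 0.32 on TKI258 replicates 1, 2 and 3, and TKI258 replicate 2 was the lowest of its group in 12 of these genes. For the 14 fatty acid synthesis genes the mean deviation was 0.30, 0.12 and 0.12, with replicate 2 lowest in 9. For the 7 oxidation genes it was 0.37, 0.48 and 0.55, and here replicate 1 was the lowest in 6. On the DMSO arrays the role means lay between -0.05 and 0.07, and over all genes the TKI258 arrays were at 0.02, 0.01 and 0.04. The mean of the oxidation genes was thus highest on replicate 3 and that of the sterol synthesis genes on replicate 1, but single genes differed from their role's mean, such as Tm7sf2 and Ebp, highest on replicate 3, and Cpt1a, highest on replicate 2. The difference in pattern between the roles was not tested.

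**Figure D5:**
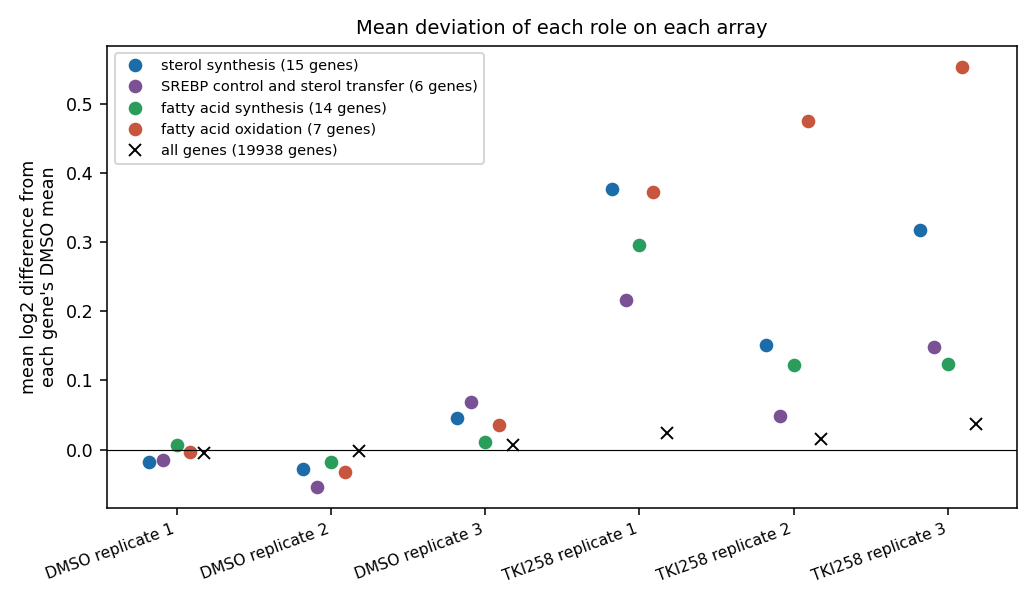
Mean log2 difference from each gene's DMSO mean, on each of the 6 arrays, for 4 roles and for all genes. All 4 role means on the TKI258 arrays are above those of all genes. TKI258 replicate 2 is the lowest TKI258 array for sterol synthesis at 0.15, and replicate 1 the lowest for oxidation at 0.37.

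Markers of lipid-storing and immune cells were measured beside these genes. Of 6 adipocyte markers 0 passed in limma, with 1 higher and 0 lower at an unadjusted p below 0.05 (Retn at 0.20). The mean signal over all 6 was 4.04 to 4.13 on the DMSO arrays and 4.14 to 4.20 on the TKI258 arrays, below the array median. Fabp4 was at 3.22 and 3.24 and Adipoq at 3.28 and 3.44 (DMSO and TKI258 means). Plin1, at 5.03 and 5.16, was above 5.01, the median of all values. Cidec, at 4.84 and 5.03, was above it only with TKI258, and Lep and Retn were below it in both groups. Of 8 macrophage markers Cd68 and Cd14 rose, by 0.82 and 0.74, and Mrc1 fell by 0.63. Cd68, at means of 6.70 with DMSO and 7.52 with TKI258, and Cd14, at 5.88 and 6.61, were above the array median. The other 6 were below the array median, with Csf1r, Adgre1, Itgam and Ptprc at means of 3.38 to 3.85. The mean signal over all 8 macrophage markers was 4.34 to 4.36 with DMSO and 4.40 to 4.51 with TKI258. The part of these marker changes in the results for lipid genes was not tested. The label of an epithelial line was met by its markers, with Krt8 at 11.92 and 11.80 and Krt18 at 11.42 and 10.92 (DMSO and TKI258 means). Of 7 mammary epithelial markers Cdh1, Krt19 and Cldn4 rose and Krt18 and Krt7 fell. The mean signal over all 7 was 9.16 to 9.29 with DMSO and 9.41 to 9.54 with TKI258.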

How the data were processed

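The authors deposited a table of 35557 probe sets by 6 arrays, read here as log2 signals from the range of its values, because no label states their scale. The submitters' processing notes list RMA, affy and limma, with neither versions nor roles. RMA sets arrays to a common distribution, which hides shifts shared by all genes and shrinks changes of dim probe sets. The precision rests on 3 arrays per group. The platform annotation of 2016 gave 1 symbol to 21789 probe sets, several to 1621 and none to 12147. Only those with 1 symbol were used, with the brightest probe set per gene.

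TKI258 and DMSO were compared in limma 3.58.1 under R 4.3.3 (lmFit and eBayes, treatment as the only term, no filter, two-sided, Benjamini-Hochberg over 19938 genes), with n = 3 arrays per group, labelled biological replicates. The fit was checked on simulated data with known changes. It recovered 8 of 50 genes at a log2 change of 0.25 and 47 of 50 at 0.5, and called 14 unchanged genes. Changes of 0.25 were thus mostly missed there. Promoter windows were RefSeq's on GRCm38.p6. Alternatives were the replicate block, each array left out, renewed quantile normalization, median centring, removal of dim genes, averaging all probe sets of a gene, probe sets tested singly, eBayes with trend and robust, and treat at 1.2-fold. All 45 members may be named. From other lists, up to 4 genes past the threshold with the smallest adjusted p are named (2 where none passed), others where a count was 5 or fewer or as family members chosen after their values were seen. The members and lists were chosen with earlier results of these data known.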

Additional observations from a re-analysis of the deposited data

Results flagged for a closer look

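A pair of probe sets annotated with several symbols, and so outside the gene-level comparison, carry a gene of the lists and differed between the groups when all probe sets were tested singly in limma. The probe set shared by Utp14b and Acsl3, the latter an acyl-CoA synthetase, read 9.59, 9.63 and 9.53 on the DMSO arrays and 10.01, 9.86 and 9.85 on the TKI258 arrays, a log2 change of 0.32 (adjusted p = 0.0256). The probe set shared by Yy2 and Mbtps2, the latter a protease that cleaves SREBP, read 9.35, 9.32 and 9.25 against 8.84, 8.90 and 8.88, a change of -0.43 (adjusted p = 0.00439). Which of the 2 genes each signal comes from cannot be told from these values. The other probe sets with several symbols and a gene of the lists did not pass. Among them, that with the member Srebf2 was at 0.03 (adjusted p = 0.879) and that with Cpt1b at -0.06 (adjusted p = 0.821).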

How the results depend on the processing

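Of the 20 members past the threshold 14, all of them rises, also passed in every alternative except treat, and the other 6 (Fdps, Nsdhl, Scap, Elovl5, Fads1 and Hadha) were lost in at least 1. No call reversed. Treat against a fold of 1.2 left 1057 of 19938 genes higher and 864 lower. Among them were 6 members higher and 0 lower: 2 of sterol synthesis, 1 of fatty acid synthesis, 2 of oxidation and 1 of SREBP control. Of the 24 members that did not pass, 9 passed in at least 1 alternative. Renewed quantile normalization gave 23 rises and 0 falls among the members, beside 2824 higher and 2581 lower over all genes. Fdft1, Hsd17b7, Me1, Fads2 and Acsl4 passed there as higher. The falls were thus 0 in SREBP control and 0 in fatty acid synthesis, and there was 1 rise among the acyl-CoA synthetases. Without dim genes, and with trend and robust, 1 synthetase passed as higher and 1 as lower. The median change of every role kept its sign under both scalings except that of the 2 synthetases, which was 0.02 and, with arrays centred, -0.0043. With 1 array left out, falls numbered 0 to 2 among members, 0 to 1 in SREBP control and 0 to 1 in fatty acid synthesis, rises 1 to 2 in SREBP control and 0 to 1 among synthetases. The sample titles link same-numbered dishes by the replicate number alone. Their deviations correlated at 0.0181, 0.0501 and 0.151, and those of unlike numbers at -0.113 to 0.0727. Not every array correlated best with its own number. With 3 arrays per group these values cannot decide whether the dishes were paired. With the replicate block 2877 genes were higher and 2487 lower, Fdps was lost, Acsl4 gained and 1 synthetase was higher. The number of arrays, 3 per group, limits the precision.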

Other observations

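Of the members, 5 had 2 probe sets with their symbol alone. The unused ones gave like changes: 0.26 for Fdft1 (past the threshold when tested singly, where the used one, at 0.21, was not), -0.10 for Idi1, 0.13 for Me1 and 0.06 for Hadhb, against -0.09, 0.14 and 0.06 for the used ones. Acaca gave -0.18 on the unused probe set and 0.00 on the used one, and neither passed.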
